A study of Sorghum bicolor with 14 samples.

Results

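The loci described here are those of the sorghum stem whose transcripts were lower in every pot-grown drought group than in every field-grown stage. They were chosen on log2(FPKM + 1), where FPKM counts the fragments of a transcript, scaled to its length in kilobases and to a total of 1000000 mapped fragments. The highest of the 3 drought values had to lie at least 1 log2 unit below the lowest of the 4 field values. Only loci with the same annotation IDs, each listed once, and the same printed range in the drought and development tables were compared. Of 26825 such loci, 13949 reached 1 FPKM in at least 1 group and 189 met the rule, which is 1.35% of those measured. The opposite rule, with all drought groups above all field groups, was met by 254 loci or 1.82%.

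All plants were of the grain sorghum (Sorghum bicolor) variety M35-1, and the tissue was the middle internode of the stem. Per the labels, the drought plants were grown in pots, 1 plant to a pot. Watering stopped when the flag leaf appeared and harvest was at booting, at soil moisture readings of about 13% (D1), 7% (D2) and 2% (D3). The field plants were sown in a nitrogen-fertilised bed that was watered regularly. They were taken before the panicle emerged, at floral initiation and booting, or later, at milky stage or soft dough. The 14 libraries form 7 groups of 2, and the values are 1 pooled column per group, so no difference below has a replicate check, an SD or a p-value. The 2 tables were normalized separately, and no watered pot group was analysed here. Growth in pots, withheld water and the table therefore cannot be told apart in any difference between drought and field groups.

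The internode is the stretch of stem between neighbouring nodes. It carries water and sugars through its vascular bundles and stores sugars in the pith, and in grasses it elongates strongly around booting, the stage at which the flag leaf sheath encloses the growing panicle. The grain fills after flowering, in the milky stage and then in soft dough. Sorghum is a crop known for keeping its stem and leaves alive through dry spells. Drying soil is known to slow growth in grass stems and to change the transcripts of water transport, cell walls and hormone responses.

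The files do not pair the annotation IDs with gene names, and 0 of the 194 IDs of these loci matched the reference gene table used here. No function can be given for them, none of the 33 gene lists could be applied, and markers of the tissue could not be checked. The 2 loci with the largest gap are named by ID, and the others by their printed position (no genome build is named in the labels or file headers). Over all shared loci, the sum of FPKM ran from 521673 at D2 to 553938 at D1 in the drought columns, and from 496564 at floral initiation to 555377 at booting in the field columns. The median log2 difference of the measured loci from booting was 0.06 at D1, 0.07 at D2 and 0.08 at D3, so rises and falls against booting nearly balanced. Single loci differed more. Among shared loci at 1 FPKM or more at D1 or booting, the quartiles of D1 minus booting were -0.47 and 0.62.

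These 189 loci formed a small part of the transcripts of the field internode and a much smaller part of those of the drought internode. Their median level was 3.32, 1.46 and 1.83 FPKM at D1, D2 and D3, against 23.4, 29.3, 20.7 and 30.3 FPKM along the stages from floral initiation to soft dough. Summed over all of them, the level was 3339, 1782 and 3062 FPKM in the drought groups, against 19512, 20365, 13289 and 16161 FPKM along the 4 stages. As a share of the sum over all shared loci this was 0.603% at D1, 0.342% at D2 and 0.559% at D3, against 3.93%, 3.67%, 2.47% and 3.24% along the stages. These differences restate the rule that chose the loci.

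**Figure D1:**
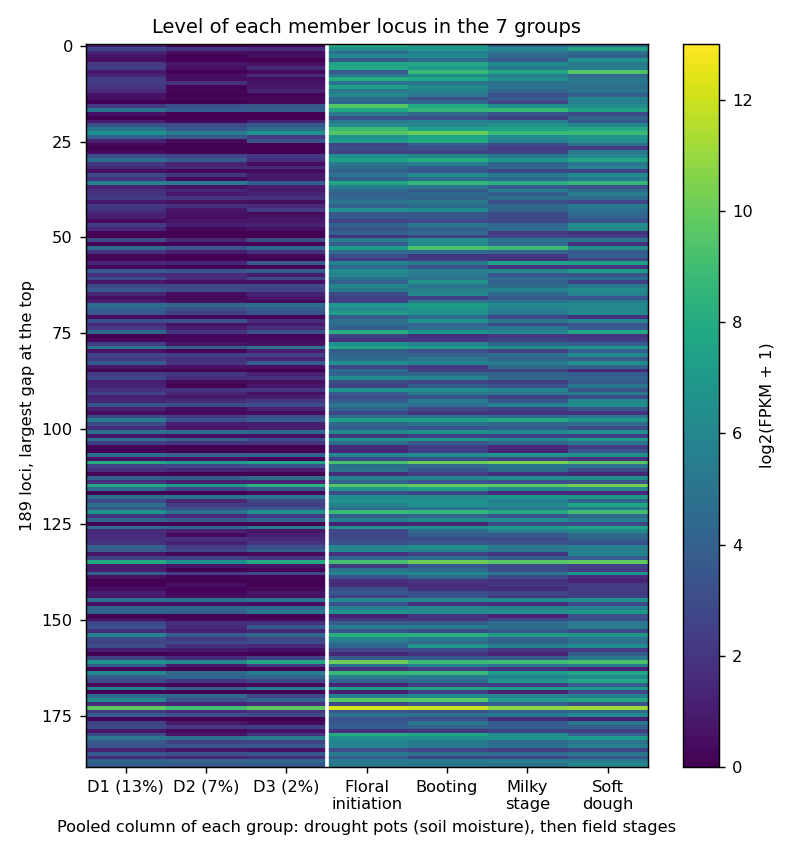
Level of the 189 loci in log2(FPKM + 1), 1 row per locus with the largest gap at the top and 1 column per group, drought pots on the left of the white line and field stages on the right. Each row is darker left of the line than right of it, as the rule requires, while the brightness differs widely between rows, from 1.21 to 4669 FPKM in the field columns.

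Across the loci, the gap between the lowest field value and the highest drought value had a median of 1.37 log2 units. The quartiles lay at 1.12 and 1.84, and the largest gap was 3.51. A gap of at least 2 was seen at 37 loci and of at least 3 at 6 loci, while 113 lay under 1.5. As a plain ratio of FPKM, the lowest field value over the highest drought value had a median of 3.51 and an upper quartile of 6.18. The scale compresses low values: with a pseudocount of 5 in place of 1 the rule was met by 83 loci, and with 0.1 by 352. D1 was the most limiting drought column, and without it 321 loci met the rule.

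**Figure D2:**
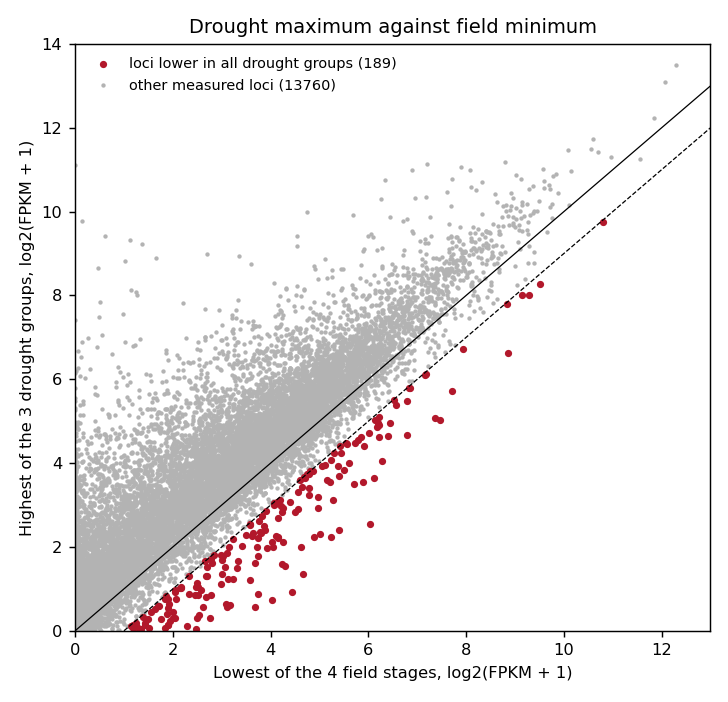
Highest of the 3 drought values (vertical) against the lowest of the 4 field values (horizontal) for each measured locus, both in log2(FPKM + 1), with the 189 loci in red and the other 13760 in grey. The solid line marks equal values and the dashed line a gap of 1, below which the red points spread to a gap of 3.51.

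The largest gap was at Sobic.007G223600, on chromosome 7 from 65105672 to 65107929. It had 0.904, 0.0248 and 0.185 FPKM at D1, D2 and D3, against 249, 120, 20.7 and 25.1 FPKM along the stages. The transcript was thus abundant before flowering, much less so in grain filling, and below 1 FPKM in all drought groups. Sobic.001G538866 (chromosome 1, 80143076 to 80143854) had 4.88, 3.03 and 2.22 FPKM at D1, D2 and D3, against 86.4, 110, 64.6 and 191 FPKM along the stages. It differed from the first in being highest at soft dough, and its lowest field value was 13.2 times its highest drought value. A locus on chromosome 1 from 72734355 to 72737471 had 1.55, 0.437 and 0.316 FPKM at D1, D2 and D3, against 24.3, 46.9, 28.7 and 24.3 FPKM along the stages. Its 4 field values spanned 0.92 log2 units, beside a median of 0.93 over the measured shared loci.

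Next in order, a locus on chromosome 3 (8923837 to 8925084) had 0.655, 0.0935 and 0.387 FPKM at D1, D2 and D3, against 62.8, 70.8, 21.3 and 15.3 FPKM along the stages. On chromosome 6, the locus from 47163066 to 47163785 had 0.490, 0.0846 and 0.0255 FPKM in the drought groups, against 11.9, 20.7, 11.9 and 102 FPKM along the stages. The first was higher in the 2 stages before flowering, and the second was highest at soft dough. A further locus on chromosome 6, from 51090459 to 51095701, had 3.71, 0.732 and 0.517 FPKM at D1, D2 and D3, against 190, 212, 76.9 and 36.8 FPKM along the stages. The locus from 62851273 to 62857742 on chromosome 3 had 4.31, 0.449 and 1.83 FPKM in the drought groups, against 211, 122, 41.1 and 44.2 FPKM. The locus from 7347191 to 7348612 on chromosome 2 had 3.96, 0.389 and 0.370 FPKM, against 273, 209, 81.3 and 31.2 FPKM. These last 3 shared a course: above 100 FPKM in both stages before flowering, lower in grain filling, and under 5 FPKM in every drought group.

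The other 2 of the 10 largest gaps lie near each other on chromosome 10. The locus from 51603656 to 51604401 had 0.849, 0.0511 and 0.252 FPKM at D1, D2 and D3, against 12.4, 439, 218 and 710 FPKM along the stages, and the locus from 51650862 to 51651891 had 1.67, 0.458 and 1.93 FPKM, against 32.5, 89.5, 47.4 and 18.6 FPKM. Both stayed below 2 FPKM in every drought group, but their field courses differed. The 10 largest gaps ran from 2.70 to 3.51, and all 10 loci were under 5 FPKM in every drought group. D1 was the highest drought group at 9 of them, beside 67.7% of the 189 and 34.8% of the measured shared loci. Both stages before flowering lay at least 1 log2 unit above both grain filling stages at 5 of them, beside 12.7% and 5.99%.

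**Figure D3:**
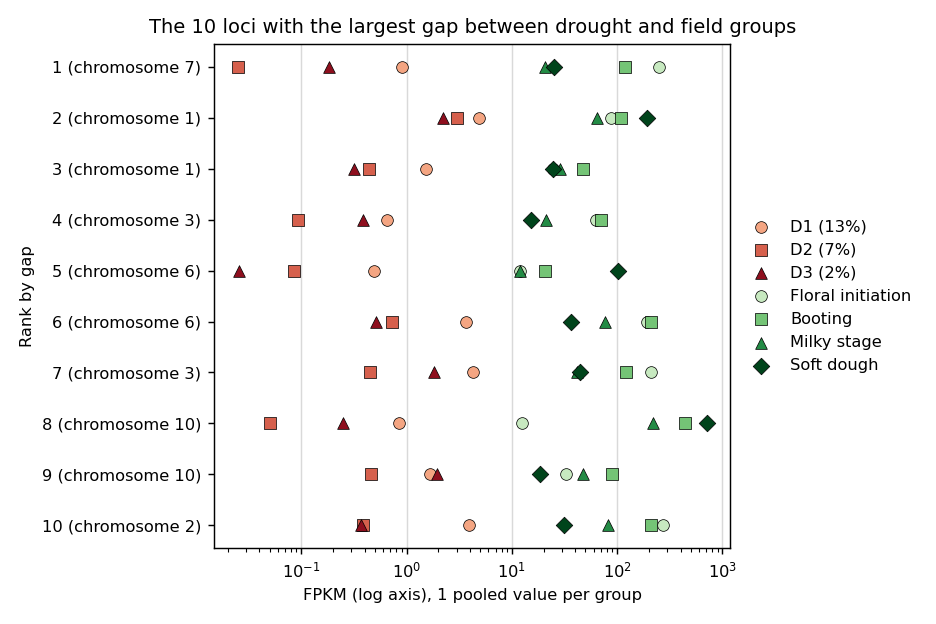
FPKM on a log axis of the 10 loci with the largest gap, from rank 1 at the top, with the 3 drought groups in red shades and the 4 field stages in green shades, 1 pooled value per group. Over the 10 rows the red marks reach at most 4.88 FPKM and the green marks start at 11.9 FPKM.

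The most abundant of the 189 loci were still well expressed under drought. The highest, on chromosome 9 from 3045193 to 3048685, had 864, 525 and 865 FPKM at D1, D2 and D3, against 4669, 3990, 1787 and 2251 FPKM along the stages. It alone made up 25.9%, 29.4% and 28.2% of the summed level of these loci at D1, D2 and D3, against 23.9%, 19.6%, 13.4% and 13.9% along the stages. Its printed range holds another locus model, so fragments may have been divided between models there. On chromosome 8, the locus from 61261974 to 61267944 had 255, 134 and 310 FPKM in the drought groups, against 733, 936, 808 and 1306 FPKM, and the locus on chromosome 7 from 64471744 to 64475700 had 258, 138 and 200 FPKM, against 625, 1076, 1355 and 779 FPKM. In both, D2 was the lowest drought group.

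A wider gap was seen at 3 other abundant loci. On chromosome 3, the locus from 9355395 to 9357007 had 94.3, 39.9 and 97.5 FPKM at D1, D2 and D3, against 745, 1026, 460 and 463 FPKM along the stages, a gap of 2.23. On chromosome 9, the locus from 52032824 to 52036139 had 31.5, 13.9 and 13.8 FPKM, against 222, 392, 452 and 177 FPKM, a gap of 2.45. On chromosome 7, the locus from 13794798 to 13796328 had 32.8, 10.5 and 26.9 FPKM, against 470, 163, 171 and 233 FPKM, a gap of 2.28. All 10 were chosen by their lowest field value, and the other 4 had gaps of 1.06 to 2.002. D2 was the lowest drought group in 8 of these 10, beside 61.4% of the 189 and 31.4% of the measured shared loci.

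Low loci were a smaller part of the 189 than of all measured loci, and the rule leaves out any locus under 1 FPKM at a stage. The lowest field value was under 5 FPKM at 49 of the 189 loci, beside 6454 of the 13949 measured. It was at least 100 FPKM at 16 of the 189. Loci under 5 FPKM were 0.759% members (49 of 6454 measured), those from 5 to under 20 FPKM 1.59% (66 of 4162), those from 20 to under 100 FPKM 2.13% (58 of 2723) and those at 100 FPKM or more 2.62% (16 of 610). The median gap was 1.30, 1.47, 1.35 and 1.22 in the same 4 classes. The rule itself uses the lowest field value that sets these classes, and its scale compresses low values. The shares and gaps by class are therefore a description of what the rule selects. All 3 drought groups were under 1 FPKM at 53 loci, and all were at 10 FPKM or more at 29. A drought value of exactly 0 was listed at 10 loci, which can be a failed estimate, so no fold is given against it. The rule itself excludes a field value of 0.

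The 5 loci just inside the threshold had gaps of 1.006 to 1.011 and the 5 just outside 0.9964 to 0.9998. The last one inside, on chromosome 3 from 59313269 to 59319271, had 13.0, 10.4 and 11.1 FPKM at D1, D2 and D3, against 36.3, 31.0, 27.1 and 60.8 FPKM along the stages. The first one outside, on chromosome 10 from 7205148 to 7206675, had 0.594, 0.181 and 0.451 FPKM, against 2.19, 3.98, 3.82 and 4.07 FPKM.

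Within the drying series, D2 was the lowest point for most of these loci. The rule sets an upper bound on all 3 drought values but no order among them, and the orders are given as a description. D2 lay below D1 at 166 of the 189 loci (87.8%), against 52.2% of the measured shared loci, and D3 lay above D2 at 129 (68.3%), against 49.3%. D2 was the lowest of the 3 at 116 loci, D3 at 53 and D1 at 20. D1 was the highest at 128, D3 at 53 and D2 at 8. In the 136 loci that reached 1 FPKM in a drought group, D2 was lowest in 87 and D1 highest in 90, where 30.2% and 33.4% of the 12693 shared loci at that level had those extremes.

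D2 against D1, about 7% against 13% soil moisture, could be measured (1 FPKM in the higher column) at 135 of the 189 loci. At least 1 log2 unit lower at D2 were 46 of them (34.1%), beside 4.99% of all shared loci measured, and 0 were higher, beside 1.09%. The median difference was -0.77 log2 units over these loci and -0.01 over all shared loci. D3 against D2, about 2% against 7%, was measured at 119 loci, of which 24 were higher at D3 (20.2%, beside 5.91% of all) and 7 lower (5.88%, beside 5.05%), with a median difference of 0.43, against -0.01 over all. D2 also has the finest grain of low values among the 7 columns, where 1 FPKM over 1 kb equals 84.7 of the smallest steps, against 56.4 at D1 and 60.1 at D3. The part of this grain in the D2 values was not tested.

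D3 against D1, the ends of the drying series, was measured at 136 loci. At least 1 log2 unit lower at D3 were 31 (22.8%), beside 8.14% of all shared loci measured, and 4 were higher (2.94%), beside 3.68%. The 31 loci had medians of 7.74, 2.86 and 2.45 FPKM at D1, D2 and D3, against a median lowest field value of 30.3 FPKM. Of these 31, 20 were also called lower at D2 than at D1. No matching share is given for all shared loci lower at D3 than at D1, so the 20 is only a description. The largest difference was on chromosome 10 from 57660660 to 57662280, with 24.4, 12.504 and 2.45 FPKM at D1, D2 and D3 (-2.88 log2 units), against 168, 269, 110 and 225 FPKM along the stages. The locus on chromosome 7 from 5299966 to 5302054 had 23.7, 3.92 and 4.19 FPKM, against 56.5, 83.2, 62.7 and 206 FPKM, and that on chromosome 7 from 57319625 to 57320983 had 4.83, 0.826 and 0.249 FPKM, against 10.98, 32.5, 12.3 and 34.4 FPKM. In the first the drop came mostly between D2 and D3, and in the other 2 mostly between D1 and D2. A course that went down at every step by at least 1 log2 unit in all was seen at 17 loci (8.99%, against 5.48% of the measured shared loci), and D2 lay at least 1 below both D1 and D3 at 17 as well (8.99%, against 1.28%).

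The 4 loci that were higher at D3 than at D1 were still below every field stage. The locus on chromosome 3 from 57122090 to 57122904 had 1.43, 0.247 and 10.3 FPKM at D1, D2 and D3, against 136, 234, 51.1 and 82.1 FPKM along the stages. On chromosome 5, from 3408589 to 3413444, the values were 1.75, 1.54 and 11.8 FPKM, against 57.4, 41.1, 185 and 171 FPKM. On chromosome 8, from 2778881 to 2780069, they were 3.68, 8.36 and 11.6 FPKM, against 766, 255, 82.4 and 68.0 FPKM, the only one of the 189 that went up at both drying steps by at least 1 log2 unit in all. The last, on chromosome 1 from 63320871 to 63327577, had 103, 70.2 and 220 FPKM, against 1042, 458, 509 and 608 FPKM. Their D3 values were 10.3 to 220 FPKM, all under the lowest field value of the same locus, as the rule requires.

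Along the field stages the loci took different courses. Milky stage was the highest stage at 22 loci (11.6%, against 25.6% of the measured shared loci) and the lowest at 66 (34.9%, against 22.4%). Soft dough was the highest at 63 loci (33.3%, against 26.9%). Floral initiation was the highest at 50 loci (26.5%, against 23.6%) and booting at 54 (28.6%, against 23.9%). Soft dough was the lowest at 50 loci (26.5%, against 26.7%), floral initiation at 48 (25.4%, against 29.4%) and booting at 25 (13.2%, against 21.5%). All 189 reached 1 FPKM at every stage, which the rule makes necessary. The 4 stages spanned a median of 1.37 log2 units, against 0.93 over those measured, and 54 loci (28.6%) spanned at least 2, against 12.7%.

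More of these loci were called at the step to milky stage than at the other steps, which also held over all shared loci. At that step only the lower calls exceeded their share over all shared loci, while at the other steps both directions did. At least 1 log2 unit lower at milky stage than at booting were 53 (28.0%), beside 14.1% of all shared loci measured. Higher were 10 (5.29%), beside 10.5%, and the median difference was -0.50. Soft dough against milky stage had 41 higher (21.7%, beside 7.4%) and 16 lower (8.47%, beside 4.01%), with a median of 0.33. Booting against floral initiation had 22 higher (11.6%, beside 5.5%) and 16 lower (8.47%, beside 3.5%). Over the whole span, soft dough against floral initiation, 45 were higher (23.8%, beside 15.5%) and 38 lower (20.1%, beside 13.8%), with a median of 0.06. By the rule all 189 were measured at every step. Their median field levels were 20.7 to 30.3 FPKM, against 9.21 to 9.74 FPKM over the measured shared loci. The part of the level in these shares was not tested.

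**Figure D4:**
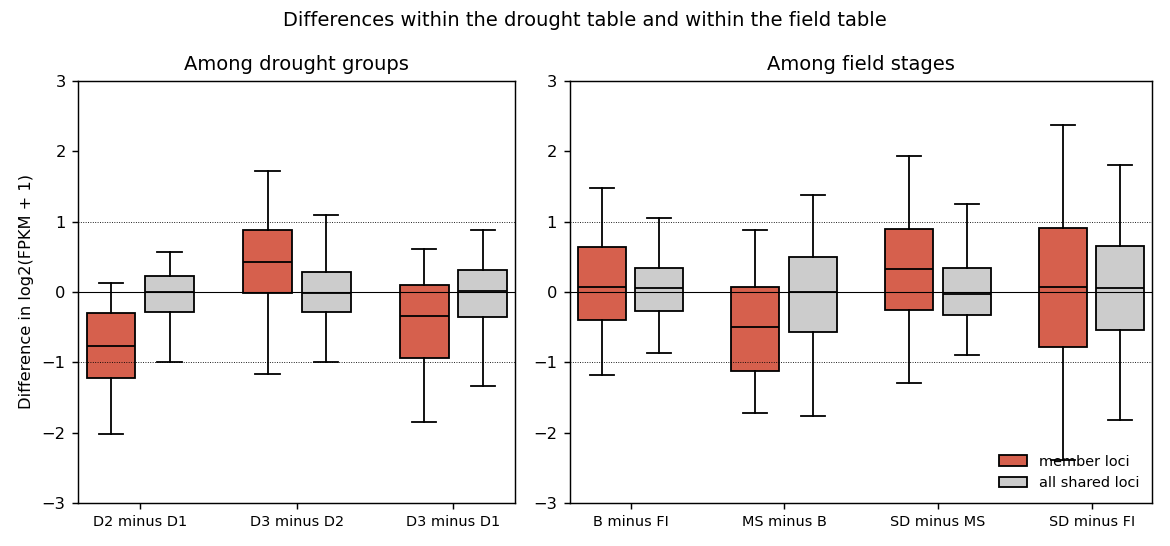
Differences in log2(FPKM + 1) between groups of one table, for the 189 loci (red) and all shared loci (grey) that reached 1 FPKM in either group, with boxes from the lower to the upper quartile, the median as a line and whiskers at the 5th and 95th percentiles. The median of the 189 loci lies at -0.77 for D2 minus D1 and at -0.50 for milky stage (MS) minus booting (B), where all shared loci have medians near 0.

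At 24 loci (12.7%, against 5.99% of the measured shared loci) both stages before flowering lay at least 1 log2 unit above both grain filling stages. Their medians were 2.35, 0.468 and 0.5001 FPKM at D1, D2 and D3, against 82.1, 64.6, 19.8 and 15.6 FPKM along the stages. They held the largest gap of all and had a median gap of 1.84, beside 1.37 for the whole. The gap, which chose the loci, and the course both use the field values, so gaps by course are only described here. The opposite course, with grain filling above the earlier stages, was seen at 5 loci (2.65%, against 4.73%), with a median gap of 1.19. One of these, on chromosome 1 from 1152500 to 1153979, had 7.45, 3.09 and 5.90 FPKM at D1, D2 and D3, against 16.5, 24.9, 110 and 211 FPKM along the stages.

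For soft dough minus floral initiation, the largest differences were on chromosome 10 at the locus from 51603656, given above (5.73 log2 units), and on chromosome 3 from 5421763 to 5422965 (-4.00 log2 units). This second locus had 7.23, 0.685 and 2.68 FPKM at D1, D2 and D3, against 268, 208, 78.2 and 15.8 FPKM along the stages. A further locus on chromosome 3, from 9069871 to 9073990, had 0.688, 0.218 and 0.315 FPKM, against 2.74, 5.005, 3.32 and 52.1 FPKM. At the other end, 42 loci varied by less than 1 log2 unit both among the drought groups and among the stages. Their medians were 3.05, 1.59 and 2.98 FPKM at D1, D2 and D3, against 17.3, 17.6, 14.2 and 13.5 FPKM along the stages. Small spreads within each table chose these 42 loci, and the distance between the tables is set by the rule. No matching share of the measured shared loci is given for both spreads together, so the 42 is only a description. Taken singly, small spreads were less common among the loci that met the rule. A spread under 1 among the stages was seen at 28.6% of them, against 54.6% of the measured shared loci. Among the drought groups the shares were 65.6% and 84.0%.

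Library titles of the drought groups and of floral initiation end in one digit and those of the later stages in another, and no label explains this digit. Floral initiation lay above the highest drought value by a median of 2.12 log2 units and at least by 1.01, against medians of 2.202 for booting, 1.90 for milky stage and 2.14 for soft dough. The rule sets each of these distances at 1 or more, so they say nothing about the digit, whose part in the values was not tested. With booting, the stage of the drought plants, as the only field column, 1042 of the 13949 measured loci were at least 1 log2 unit lower in all drought groups. By the rule the 189 are all among them. No matching count of loci higher in all drought groups than at booting is given here. Against booting alone, all 189 were lower at D1, D2 and D3 by the rule, beside 12%, 15.5% and 13.2% of all shared loci measured. By the same rule 0 of them were higher than at booting, beside 13.6%, 13.4% and 10.6% of all shared loci measured.

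The loci were shorter than most. Their printed ranges had a median of 2332 bp (shortest 581, longest 34906), against 4059 bp for the measured shared loci and 3323 bp for the 254 loci higher in all drought groups. Under 1000 bp were 27 of the 189 (14.3%), against 4.60% of the measured shared loci, and under 2000 bp 80 (42.3%), against 16.9%. The difference was present in the 3 lower classes of level. Where the lowest field value was under 5 FPKM, the median was 2134 bp for these loci and 3478 bp for all measured, from 5 to under 20 FPKM it was 2160 and 4683 bp, and from 20 to under 100 FPKM 3764 and 4468 bp. At 100 FPKM or more it was 3405 bp for the 16 loci and 3447 bp for all. A printed range includes introns, so it can be longer than the transcript, and the part of length in the values was not tested.

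A single annotation ID was carried by 184 of the loci and several by 5. The printed range held another model at 15 (7.94%), against 12.4% of the measured shared loci. Without loci whose range holds another model, 174 met the rule.

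The loci were spread over all 10 chromosomes. Their share of the measured shared loci ran from 0.875% on chromosome 8 (6 of 686) to 1.73% on chromosome 7 (16 of 924), and chromosome 1 held the most (44 of 2683, or 1.64%). Chromosomes 5 and 8 together held 16, or 1.21% of their 1324 measured loci, with a median gap of 1.24. Ordered along the chromosomes, 16 of the 189 stood in 7 runs of neighbouring measured loci, of which 5 were pairs and 2 held 3 loci. Another of these loci lay within 100 kb at 40 of them. No matching counts for other sets of loci are given here, and whether the 189 stand closer together than other loci was not tested. Measured loci that stood next to one of the 189 without being among them had a median gap of -0.67 (355 loci), against -0.76 for all measured ranges outside the rule, and 5.07% of them had a gap of at least 0.5, against 2.10%.

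The run of 3 on chromosome 1 lies between 31327154 and 31385784. Its first locus had 1.82, 0.200 and 0.577 FPKM at D1, D2 and D3, against 8.998, 16.8, 22.6 and 62.2 FPKM along the stages. Its second had 3.002, 0.302 and 0.765 FPKM, against 15.5, 25.3, 19.7 and 40.8 FPKM, and the last was listed at 0 at D1 and had 0.0201 and 0.0298 FPKM at D2 and D3, against 7.77, 7.94, 4.52 and 17.3 FPKM. All 3 were highest at soft dough, and the first 2 shared the drought order of D1 above D3 above D2. Their ranges are 1163, 1057 and 675 bp long. The next measured locus along the chromosome had 2.85, 2.92 and 2.98 FPKM at D1, D2 and D3, against 1.31, 1.33, 1.61 and 2.08 FPKM along the stages. These low values differed by under 1 log2 unit, so this locus did not meet the opposite rule.

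The run of 3 on chromosome 2, between 64609749 and 64625079, has ranges of 1022, 831 and 887 bp. The first had 0.0530 FPKM in D1 and was listed at 0 at D2 and D3, against 2.59, 4.74, 5.14 and 5.01 FPKM along the stages. The second had 2.06, 1.28 and 0.654 FPKM, against 5.99, 20.9, 46.8 and 72.1 FPKM, and the last had 0.232 and 0.0568 FPKM at D1 and D2 and was listed at 0 at D3, against 4.66, 12.2, 7.16 and 25.2 FPKM. In all 3 floral initiation was the lowest stage. The next measured locus, from 64646181 to 64647055, was chosen for mention after its values were seen: it was listed at 0 in all 3 drought groups and had 3.20, 1.99, 0.0898 and 1.05 FPKM along the stages, so that its low milky stage value kept it outside the rule.

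The 2 loci on chromosome 10 with gaps of 2.86 and 2.75 lie 46461 bp apart and are not neighbours. The measured locus between them, from 51619513 to 51622293, had 37.0, 30.0 and 29.5 FPKM at D1, D2 and D3, against 14.3, 34.7, 22.6 and 23.9 FPKM along the stages. It was thus well expressed in the drought groups, and the low drought values around it did not extend over the whole stretch. On chromosome 4, a pair of neighbours between 54118709 and 54126235 and a locus from 54320154 to 54320746 were each listed at 0 in 1 drought group. The first of the pair was listed at 0 at D1 and had 0.0135 and 0.229 FPKM at D2 and D3, against 19.5, 18.4, 5.75 and 47.7 FPKM along the stages, and all 3 were highest at soft dough.

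**Figure D5:**
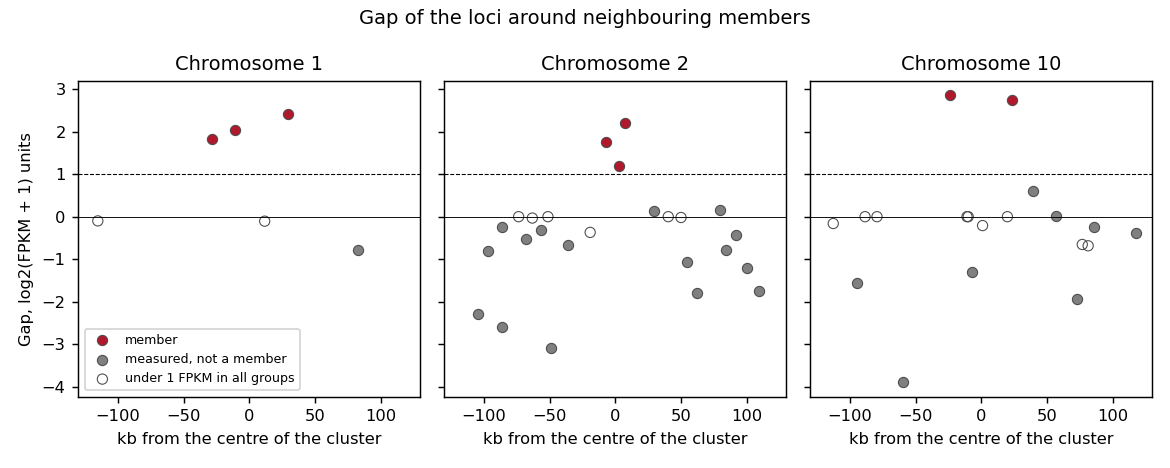
Gap (lowest field value minus highest drought value, log2(FPKM + 1) units) of the loci around the runs of 3 on chromosomes 1 and 2 and the pair on chromosome 10, by distance in kb from the centre of each cluster. The red points, which are the loci that met the rule, lie above the dashed line at 1, and the measured loci around them (filled grey) lie mostly below 0.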

How the data were processed

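Per the labels' protocols, total RNA was extracted by trizol and sequenced from stranded total RNA libraries. HISAT2 2.0.5, Bowtie2 2.2.9, cutadapt 1.8.1 and Cuffdiff are listed, without their roles, in the submitters' processing notes. Per the file headers the authors deposited FPKM, as 1 column per group, which both libraries of the group name in their labels. No library totals or strand setting were found in the labels or headers, so the depth is unknown and overlapping loci on opposite strands may share fragments. The smallest non-zero values (1st percentile of FPKM times kilobases, loci of at most 3000 bp) correspond to a value of 1 FPKM in 1 kb being 56.4 to 84.7 such steps.

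The development table (34755 loci) and the drought table (32726 loci) were joined on IDs and printed range with Python 3.11.15 and pandas 2.3.3. Levels were compared as log2(FPKM + 1), on which changes of low loci are understated. A locus was measured in a comparison at 1 FPKM or more in the higher column, and called at a difference of at least 1. The code of the member rule was run on simulated tables with large planted shifts, which checks the code and not the members. Loci were named as the 10 largest gaps, the 10 highest lowest-field values, the 5 largest differences for D3 against D1 and for soft dough against floral initiation, runs of 3 or more, and loci at the threshold. The members, lists and rules were chosen with earlier results of these data known. The alternatives were other pseudocounts, filters, scalings, thresholds and columns.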

Additional observations from a re-analysis of the deposited data

How the results depend on the processing

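Counts stayed within 1.5 times, except as follows, under each alternative tried. A pseudocount of 0.1 gave 352 loci lower in all drought groups, of which 57 were lower at D3 than at D1, 94 higher at soft dough than at floral initiation and 75 lower. A pseudocount of 5 gave 83, 8, 19 and 17 for the same counts, which a larger pseudocount lowers by construction. With columns rescaled to the same sum, 48 members were lower at D3 than at D1 and 63 lower at soft dough than at floral initiation; that rescaling also raises values against the pseudocount, and which effect moved the counts was not tested. A gap of at least 0.5 gave 471 loci and one of at least 2 gave 37. Booting as the only field column gave 1042 and the rule without D1 gave 321, since fewer columns have to pass. All 189 loci were kept under both scalings of all columns. When the 50 top loci by mean FPKM were removed, 188 were kept, and the locus lost was itself among the 50. Joining the tables on IDs with any printed range, an alternative chosen after seeing the data, gave 235 loci. The 45 loci compared by their gap included those just outside the rule, whose gaps were already below 1. With a pseudocount of 5, 13 dropped below 1. With a pseudocount of 0.1, and under each scaling of all columns, 5 rose above 1. No gap changed sign, but a pseudocount, a filter or another join cannot change it by construction. Only the scalings could have done so. No replicate could be left out and no paired analysis was possible because the columns carry no value per library. Depth is unknown, so counting error cannot be given.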
